A study of Mus musculus with 18 samples.

Results

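T-cell homing and migration receptors were followed as a group of 8 genes: the transcription factor Klf2, the egress receptor S1pr1, the chemokine receptors Ccr7, Ccr9 and Cxcr4, and the adhesion molecules Cd44, Itga4 and Itgal. They were found by symbol and make up 8 of the 18329 genes in a table of acute libraries and 8 of the 18953 genes in a table of survival libraries. The 18 RNA-sequencing libraries came from the spleens of C57BL/6 mice bearing T-cell acute lymphoblastic leukemia (T-ALL), a leukemia of immature T cells. All recipients had been irradiated at a sub-lethal dose and injected with T-ALL cells carrying a conditional allele of Acly, the gene of ATP citrate lyase, which makes cytosolic acetyl-CoA from citrate. The knockout (KO) groups received tamoxifen, 3 mg per mouse in corn oil, to delete Acly, and the control (WT) groups received corn oil alone. In the acute arm treatment began when leukemia was overt and spleens were taken 48 h later (4 KO and 4 WT libraries). In the survival arm treatment came 48 h after injection of the cells and spleens were taken at the humane endpoint, with 3 KO libraries labelled as a first wave, 3 KO libraries labelled as a second wave and 4 WT libraries. What defines the waves, what drives the recombination, the age of the mice and whether libraries came from separate mice are not stated by the labels, so the p-values measure only the spread between these samples. Tamoxifen and the loss of Acly cannot be told apart in any KO and WT comparison.

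Lymphocytes leave the blood in steps. Selectins and CD44 let a cell tether and roll, chemokine receptors such as CCR7, CCR9 and CXCR4 sense ligands on the vessel wall or in the tissue, and the integrins LFA-1 and VLA-4 then hold the cell firmly. Exit from lymphoid tissue depends on S1PR1, the receptor for sphingosine-1-phosphate, and KLF2 is the transcription factor known to switch on S1pr1 in mature T cells. In T-ALL, CXCR4 and its ligand CXCL12 are known for holding leukemia cells in bone marrow niches, and CCR7 for entry into the central nervous system.

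Acly was lower in every KO library than in every WT library of its table (acute 733 ± 85.1 against 1256 ± 122 normalized counts, SD, n = 4 and 4). Normalized totals were 7.07 to 8.03 M counts per acute library and 9.19 to 10.4 M per survival library, and the tables were normalized separately, so levels are not compared across them. The tissue label held against T-cell leukemia genes: group means of Notch1 lay between 12044 and 20844 normalized counts and those of Rag1 between 15635 and 36297. Several libraries stood apart. KO acute libraries 1 and 2 had mitochondrial transcripts at 4.80% and 5.27% of counts, against 2.35% and 2.70% in KO acute libraries 3 and 4 and 3.50% to 3.69% in WT acute. WT survival libraries 1 and 2 lay at 78.6 and 67.2 on the first principal component of the survival table, against -18.8 and 4.16 for WT survival libraries 3 and 4. The summed level of 20 thymocyte and T-ALL markers was 75257 to 103206 normalized counts in KO acute and 107214 to 124443 in WT acute. The groups did not overlap. Of the 20, 6 fell at an adjusted p under 0.05 (limma), where 8.07% of all genes tested fell and 4.58% rose. The sum weighs high genes most, such as Rag1 (15635 ± 3196 in KO acute and 23973 ± 5289 in WT acute). Lck was at 6988 ± 759 and 7834 ± 507. The median log2 fold change of the list was -0.22, with 17 lower and 3 higher. The neutrophil markers summed to 2207 to 6020 in KO acute and 1272 to 2677 in WT acute. Of 16 tested 2 rose, beside 4.58% of all genes tested. All 16 had a positive log2 fold change, with a median of 0.75. The B-cell markers summed to 587 to 1443 and 423 to 915, and none of 10 tested passed (3 at an unadjusted p under 0.05, limma). All 10 had a positive log2 fold change, with a median of 0.82. The macrophage and monocyte markers summed to 1255 to 2763 in KO acute and 1028 to 1230 in WT acute, with no overlap. Of 11 tested only Lyz2 passed, and it rose from 385 ± 130 to 1091 ± 471, a large part of that sum. The median log2 fold change of the list was 0.12, with 8 higher and 3 lower. The stroma and endothelium markers summed to 1435 to 1603 in KO acute and 1049 to 1226 in WT acute, with no overlap; 1 of 5 tested, Pecam1, rose, and it made up most of that sum. The NK-cell markers summed to 438 to 514 in KO acute and 528 to 658 in WT acute, and none of 6 tested passed (1 at an unadjusted p under 0.05, limma).

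**Figure D1:**
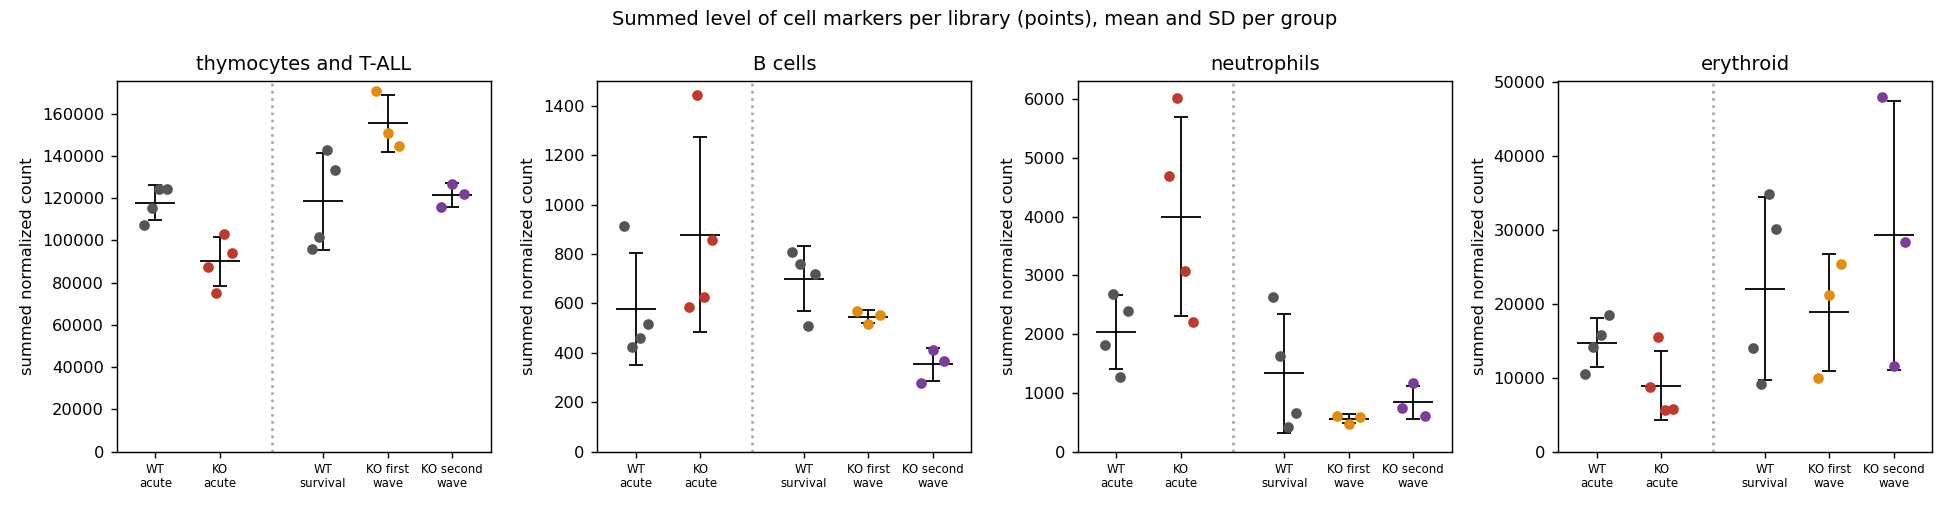
Summed normalized counts of 4 marker lists (y axes, linear from 0) in each library (points) by group (x axis), with the group mean and SD; the dotted line parts the acute from the survival table. The thymocyte and T-ALL markers of all KO acute libraries lie below those of all WT acute libraries.

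Per kilobase of transcript, Cxcr4 was the most abundant of the 8 genes and Ccr7 the least, in the acute and in the survival libraries. In the acute libraries the mean level per kb was 834 ± 175 (SD over all 8 libraries) for Cxcr4, above 345 ± 88.6 for Itgal and 292 ± 39.9 for Itga4. Itgal exceeded Itga4 in 6 of 8 acute libraries, so their order was not fixed, and both exceeded Cd44 (40.1 ± 9.98) in every acute library. Ccr9 (19.2 ± 4.84), S1pr1 (14.4 ± 7.0) and Klf2 (11.2 ± 6.29) formed a low group whose libraries overlapped, and Ccr7 had 3.26 ± 2.94. In the survival libraries Cxcr4 again led every other member in 10 of 10 libraries, at 1663 ± 243 per kb, followed by Itga4 (606 ± 233), Itgal (460 ± 104) and Cd44 (64.3 ± 36.0). S1pr1, Klf2 and Ccr9 lay between 17.7 and 20.8 per kb on average and exchanged places between libraries. Transcripts of Cxcr4, Itga4 and Itgal were thus far more abundant than those of Klf2, S1pr1 and Ccr7, which serve the recirculation of naive T cells. Cd44 lay between them, and Ccr9 lay with Klf2 and S1pr1. Lengths are those of 1 principal transcript per gene, and the isoforms present were not resolved.

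**Figure D2:**
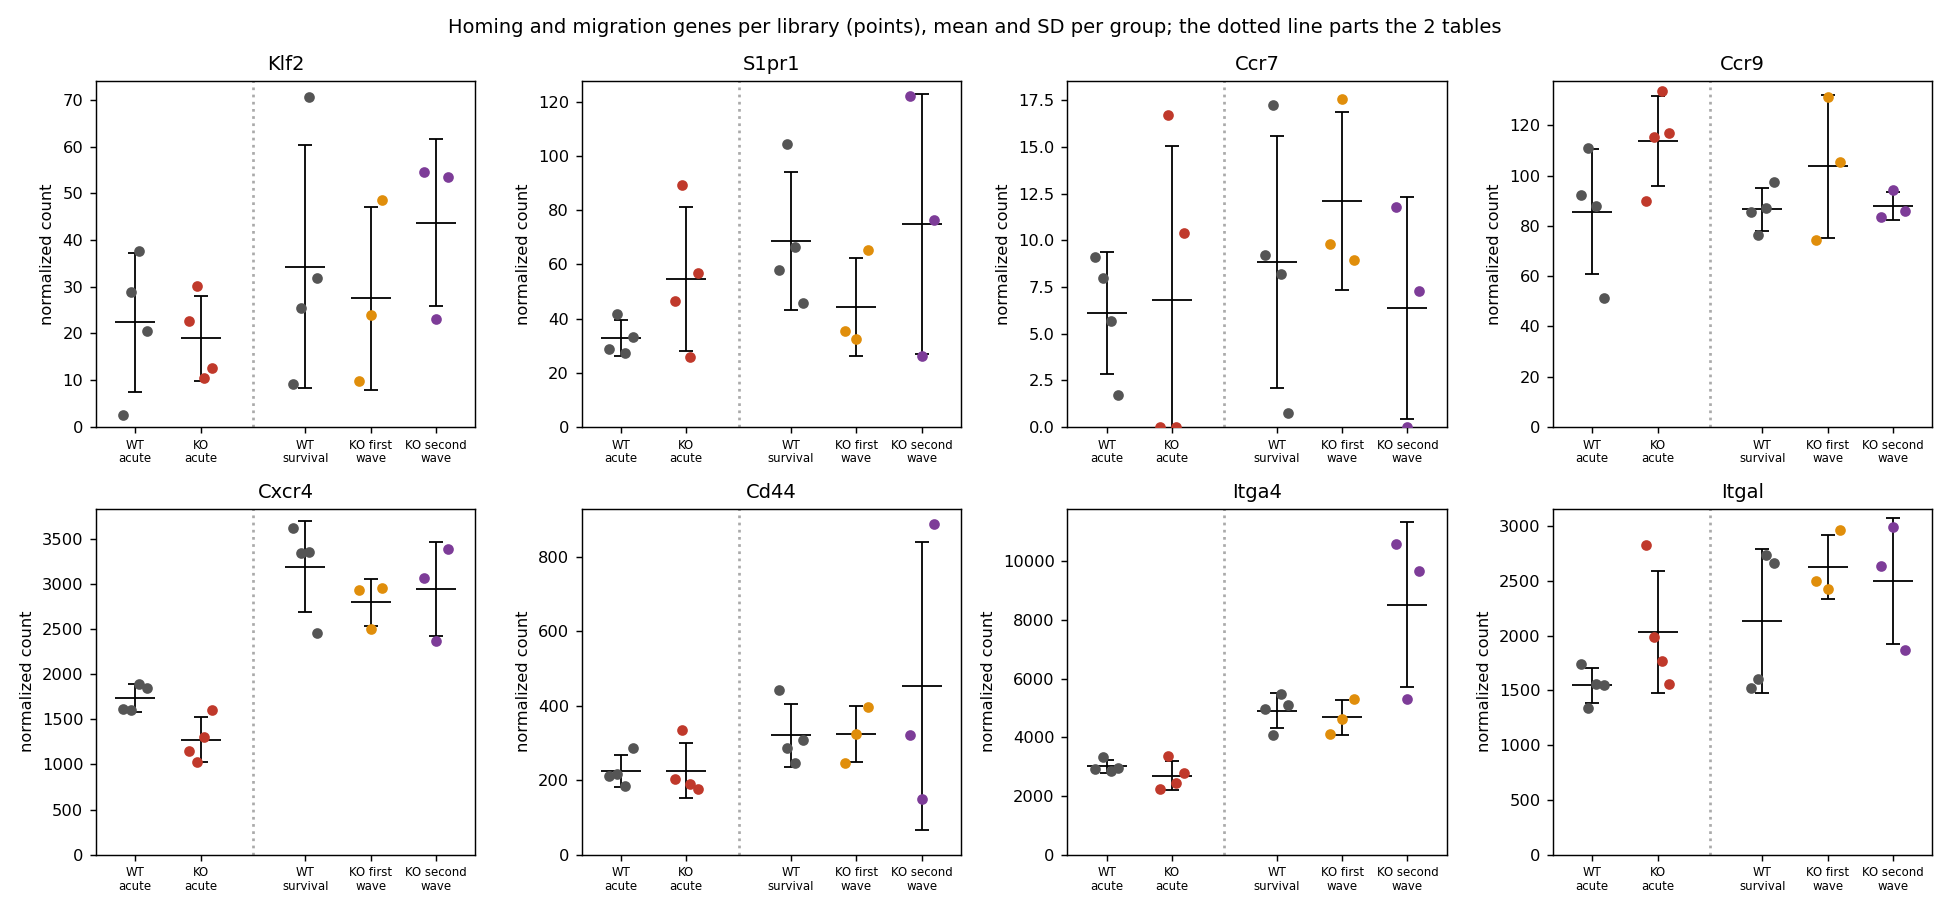
Normalized counts (y axes, linear from 0) of the 8 genes in each of the 18 libraries (points) by group (x axis), with the group mean and SD; the dotted line parts the 2 tables, which were normalized separately. Cxcr4 is lower in KO acute apart from 1 library that reaches the WT range, and Itga4 is high in 2 of the 3 libraries of the second wave.

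Of the 7 members with a mean of at least 10 normalized counts, 1 passed an adjusted p of 0.05 in the acute comparison and none in the survival comparisons (limma with Benjamini-Hochberg adjustment over all genes tested). The background was 12.6% of 14184 genes passing in the acute comparison (4.58% higher and 8.07% lower in KO), 0% for the first wave against WT, 0.224% for the second wave against WT, 0.119% for the second wave against the first and 0.0210% for both waves against WT, each of 14286 genes. A count of 1 in 7 is near the background of the acute comparison and is no result about the members as a set. In these bulk spleen suspensions fewer cells of a type and less RNA per cell cannot be told apart. At an unadjusted p under 0.05 the members counted 2, 0, 1, 1 and 0 of 7 in that order, against 28.1%, 8.02%, 13.0%, 6.34% and 12.9% of all genes. The median log2 fold change over the 7 members was 0.11, -0.07, 0.16, 0.14 and 0.12, and that over all genes 0.03, 0.01, -0.01, -0.01 and -0.01. Log2 fold changes are on the log2(value + 1) scale, which understates changes of low genes such as Klf2.

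**Figure D3:**
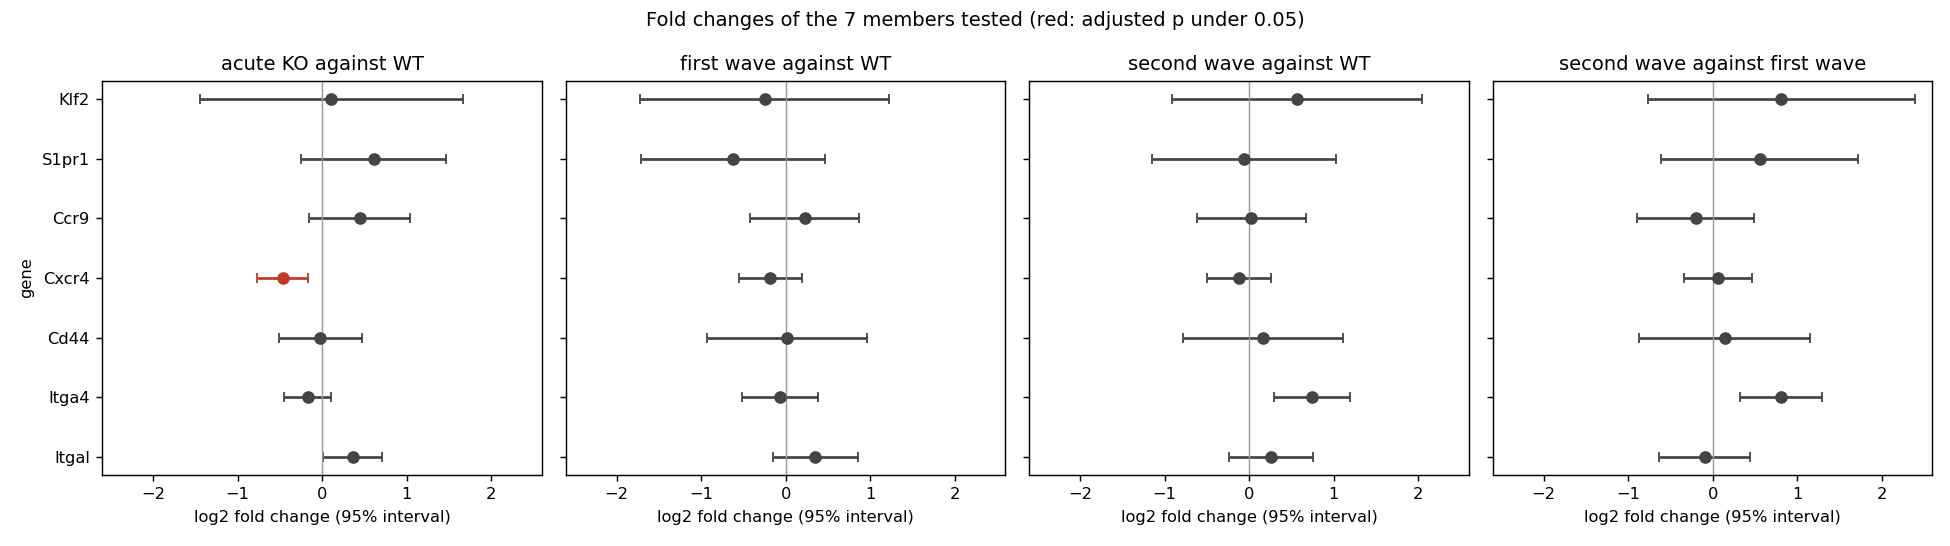
Log2 fold changes (x axis) with 95% intervals (bars) of the 7 genes tested (y axis) in 4 comparisons; red marks an adjusted p under 0.05. Cxcr4 in the acute comparison is the only red point, and the intervals of Itga4 in the 2 comparisons of the second wave lie above 0 without passing the adjustment.

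Klf2 (chr8:72319033-72321656 on GRCm38, plus strand) was low and scattered in every group. In the acute libraries it was at 2.48, 28.9, 37.6 and 20.5 normalized counts in WT and 22.7, 30.1, 10.6 and 12.7 in KO. WT library 1 was the lowest of the 8; among the others KO libraries 3 and 4 lay below the rest, and KO libraries 1 and 2 lay inside the WT range. The log2 fold change was 0.11 (SE 0.72, 95% interval -1.44 to 1.66, adjusted p = 0.942), although the mean was lower in KO, 19.0 ± 9.10 against 22.4 ± 14.98; without WT acute library 1 it was -0.66 (adjusted p = 0.460). In the survival table Klf2 was at 9.20, 25.5, 70.6 and 31.9 in WT, 9.81, 24.1 and 48.6 in the first wave, and 54.7, 23.0 and 53.4 in the second wave. Its highest library was a WT one, and none of the survival comparisons passed (adjusted p between 0.755 and 0.956). The 95% intervals reached from -1.73 to 2.39 over the survival comparisons, so the depth and the spread leave the direction of Klf2 unresolved.

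Genes that set or read KLF2 activity were taken as a list of 17, all tested: its activators FOXO1 and the MEF2 factors, the MEKK3 to ERK5 kinase chain, other KLF genes and its T-cell targets. In the acute comparison 1 rose (Itgb7) and 2 fell (Il7r and Klf6), beside 4.58% and 8.07% of all genes tested. The median log2 fold change of the list was 0.0022 against 0.03 for all genes. Il7r, the interleukin-7 receptor and a FOXO1 target, was at 737 ± 230 normalized counts in KO and 1544 ± 156 in WT with no overlap (log2 fold change -1.11, SE 0.19, adjusted p = 0.00308). Klf6, a related zinc-finger factor, was at 248 ± 33.2 in KO and 414 ± 56.9 in WT (-0.74, SE 0.17, adjusted p = 0.0134; 0.0507 without WT acute library 4).

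S1pr1 (chr3:115710433-115715072, minus strand), the receptor that lets T cells leave tissue towards sphingosine-1-phosphate in blood, was at 28.9, 41.8, 27.3 and 33.3 normalized counts in WT acute and 46.6, 89.5, 26.0 and 56.6 in KO acute. KO libraries 1, 2 and 4 lay above all WT libraries and KO library 3 lay below them. The difference did not pass (log2 fold change 0.61, SE 0.40, 95% interval -0.26 to 1.47, adjusted p = 0.348). In the survival table it was at 57.8, 104, 66.6 and 45.7 in WT, 35.6, 32.4 and 65.2 in the first wave, and 122, 26.2 and 76.5 in the second wave. The second wave spanned a 4.66-fold range, wider than any group difference, and S1pr1 gave -0.62 (SE 0.51, adjusted p = 0.739) in the first wave against WT. Of 10 other S1P receptor and metabolism genes tested in the acute libraries, Plpp3, a lipid phosphatase that dephosphorylates S1P, passed at 18.1 ± 10.4 in KO against 60.9 ± 26.0 in WT (-1.70, SE 0.48, adjusted p = 0.0334). That call was lost without any of 6 of the 8 libraries (adjusted p 0.0624 to 0.106: WT acute 1, 3 and 4, KO acute 1, 2 and 3). Of the sphingosine kinases, Sphk1 was at 44.6 ± 24.03 against 55.7 ± 25.0 and Sphk2 at 127 ± 54.9 against 68.3 ± 18.8, and neither passed.

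Ccr7 (chr11:99144196-99155077, minus strand), which guides T cells into lymph nodes and splenic T zones, stood below the minimum mean in both tables and was not among the genes tested. It was at 9.10, 7.96, 5.69 and 1.70 normalized counts in WT acute and was listed at 0 in KO acute libraries 1 and 3, with 16.7 and 10.4 in the other two. It reached at most 17.6 in the survival libraries and was listed at 0 in library 2 of the second wave. With no filter on low values the acute log2 fold change was -0.75 (SE 0.99, adjusted p = 0.700), and the interval of -2.85 to 1.34 leaves the direction unresolved. Its ligand gene Ccl19 was at most 6.43 in the survival libraries.

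Ccr9 (chr9:123678439-123784330, plus strand), the receptor for CCL25 that guides progenitors to the thymus and T cells to the gut, was at 92.2, 111, 87.9 and 51.4 normalized counts in WT acute and 89.8, 115, 133 and 117 in KO acute. KO libraries 2, 3 and 4 exceeded every WT library and library 1 lay inside the WT range; the log2 fold change was 0.45 (SE 0.28, adjusted p = 0.321). In the survival table the group means were 86.6 ± 8.61 in WT, 104 ± 28.4 in the first wave and 87.9 ± 5.58 in the second wave, and no comparison passed. Ccr9 was the steadiest of the low members there, with a range of 1.13-fold within the second wave. The annotated gene span overlaps those of Slc6a20a and Lztfl1 on the opposite strand. The libraries were stranded, but how strand was handled in counting is not stated by the labels. Whether the exons overlap was not examined, so any part of reads from these genes in the Ccr9 values is unknown. Ccl25 transcripts were present in every group, with means between 429 and 513 normalized counts.

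Cxcr4, the receptor for CXCL12, was the 1 member that passed in the acute comparison. It lies at chr1:128588199-128592293 on the minus strand of GRCm38, in 2 exons, and the 250 bases before its RefSeq start (chr1:128592300-128592549, minus strand, GRCm38.p6) are shown because this is the gene whose transcript fell; capitals mark matches to the palindromic NRF1 motif, the GC box (GGGCGG or CCGCCC) and the KLF motif (CACCC or GGGTG).
Cxcr4: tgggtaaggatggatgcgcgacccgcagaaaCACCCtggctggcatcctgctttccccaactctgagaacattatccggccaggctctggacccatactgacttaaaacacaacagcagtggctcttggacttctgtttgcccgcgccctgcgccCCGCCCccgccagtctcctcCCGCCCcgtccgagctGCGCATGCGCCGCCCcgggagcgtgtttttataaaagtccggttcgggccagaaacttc
The stretch held 1 NRF1 match beginning 59 bases before the start, 3 GC boxes, of which the one nearest the start overlaps the NRF1 match, and 1 KLF match. The NRF1 motif occurred in 0.782% of 32851 such windows, the GC box in 32.7% and the KLF letters in 52.0%. Neither the FOXO letters GTAAACA nor the E-box CACGTG occurred in this window.

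Cxcr4 was at 1611, 1599, 1898 and 1848 normalized counts in WT acute and 1148, 1029, 1307 and 1608 in KO acute. KO libraries 1, 2 and 3 lay below all WT libraries, and KO library 4 sat between the second lowest and the lowest WT library, so the groups overlapped (19.0% of genes tested had no overlap). The KO mean of 1273 ± 251 was 73.2% of the WT mean of 1739 ± 156 (log2 fold change -0.47, SE 0.14, 95% interval -0.77 to -0.16, adjusted p = 0.0448 in limma). The call stood close to the threshold. It was lost on leaving out any library other than KO acute 4 (adjusted p 0.0585 without WT acute 1, 0.0690 without WT 2, 0.116 without WT 3, 0.119 without WT 4, 0.106 without KO 1, 0.102 without KO 2 and 0.0668 without KO 3), and without KO acute 4 it was -0.59 (adjusted p = 0.0141). Without KO acute libraries 1 and 2, those with high mitochondrial shares, the log2 fold change was -0.26 (adjusted p = 0.290 in limma). KO acute 1 and 2 were also the 2 lowest KO libraries for Cxcr4, and KO acute 4 was the highest. Leaving out the former shrinks the difference by construction, and leaving out the latter enlarges it. The log2 fold change was -0.32 after quantile (adjusted p = 0.137) or cyclic loess normalization (adjusted p = 0.129). The summed thymocyte and T-ALL markers were also lower in KO acute, with no overlap, the NK-cell sum was lower and the macrophage and the stroma and endothelium sums higher with no overlap, and the neutrophil and B-cell sums were higher with overlap; their part in the Cxcr4 result was not tested.

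No survival comparison of Cxcr4 passed. It was at 3622, 3348, 3354 and 2458 in WT, 2940.2, 2499 and 2958 in the first wave, and 3074, 2371 and 3388 in the second wave. The 3 groups shared one range, with log2 fold changes of -0.18 (95% interval -0.56 to 0.20) for the first wave, -0.12 (-0.49 to 0.26) for the second wave and 0.06 (-0.34 to 0.46) between the waves. The Cxcl12 gene of its ligand, made by stromal cells, was near the floor in the spleen suspensions, with group means between 3.72 and 20.0. None of the 9 other chemokine receptors reported here for the acute libraries passed (3 at an unadjusted p under 0.05), nor did any of 3 chemokine genes (0 at an unadjusted p under 0.05, limma).

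Cd44 (chr2:102811141-102901665, minus strand), the hyaluronan receptor that T cells carry after activation, covered 1 range in the acute groups. It was at 212, 217, 183 and 287 normalized counts in WT and 204, 334, 190.2 and 175 in KO. The groups covered each other, and the log2 fold change was -0.02 (SE 0.23, 95% interval -0.51 to 0.47, adjusted p = 0.964). In the survival table it was at 442, 287, 245 and 308 in WT, 247, 325 and 397 in the first wave, and 322, 149 and 888 in the second wave. The second wave held both the lowest and the highest of the 10 libraries, a 5.94-fold span, and its difference from WT was 0.16 (SE 0.44, adjusted p = 0.907); without library 3 of the second wave it was -0.51. The list of integrin and CD44 ligand genes also held Hmmr, a hyaluronan-binding protein of the mitotic spindle. Of its 8 genes tested in the acute libraries only Hmmr passed, beside 12.6% of all genes tested. Hmmr fell from 1010.1 ± 175 to 608 ± 74.8 (-0.72, SE 0.15, adjusted p = 0.00796 in limma).

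Itga4 encodes integrin α4, which pairs with β1 (Itgb1) as VLA-4, a receptor for VCAM-1 and fibronectin, or with β7 (Itgb7) as the gut-homing receptor for MAdCAM-1. The 250 bases before the RefSeq starts of the 3 chains are shown because the transcripts of the 2 β chains went in opposite directions in the acute libraries; they lie at chr2:79255176-79255425, plus strand, chr8:128685404-128685653, plus strand, and chr15:102231936-102232185, minus strand (GRCm38.p6), with capitals for the GC box and the KLF motif as above.
Itga4: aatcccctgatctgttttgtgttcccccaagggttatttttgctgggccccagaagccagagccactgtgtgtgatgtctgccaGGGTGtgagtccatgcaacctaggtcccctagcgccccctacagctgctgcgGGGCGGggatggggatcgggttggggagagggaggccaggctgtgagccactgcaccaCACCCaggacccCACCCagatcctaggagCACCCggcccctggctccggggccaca
Itgb1: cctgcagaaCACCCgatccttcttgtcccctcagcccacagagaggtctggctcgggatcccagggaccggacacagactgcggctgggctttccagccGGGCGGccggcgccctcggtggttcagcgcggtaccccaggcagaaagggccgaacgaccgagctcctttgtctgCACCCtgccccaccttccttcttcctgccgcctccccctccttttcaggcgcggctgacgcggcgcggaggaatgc
Itgb7: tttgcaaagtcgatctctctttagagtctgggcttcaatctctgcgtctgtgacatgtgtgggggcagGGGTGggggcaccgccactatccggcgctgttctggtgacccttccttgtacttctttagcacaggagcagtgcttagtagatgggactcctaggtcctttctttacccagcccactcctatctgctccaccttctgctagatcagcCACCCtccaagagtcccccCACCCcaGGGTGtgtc
Itga4 held 1 GC box and 4 KLF matches, Itgb1 held 1 and 2, and Itgb7 held no GC box and 4 KLF matches. None held the NRF1, FOXO or E-box letters.

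In the acute libraries Itga4 (chr2:79255426-79333123, plus strand) was at 2900.2, 3329, 2860.1 and 2945 normalized counts in WT and 2225, 3344, 2424 and 2789 in KO. KO libraries 1, 3 and 4 lay below all WT libraries and KO library 2 above them; the difference did not pass (log2 fold change -0.17, SE 0.13, 95% interval -0.45 to 0.10, adjusted p = 0.402) and its sign turned under cyclic loess normalization (0.0084). Its β partners moved apart. Itgb1 was at 3228, 3047, 2852 and 2824 in WT and 1745, 1472, 2357 and 2074 in KO, with no overlap, and fell from 2988 ± 189 to 1912 ± 386 (-0.66, SE 0.14, adjusted p = 0.00750). Itgb7 was at 89.2, 26.9, 64.6 and 56.8 in WT and 114, 169, 172 and 149 in KO, with no overlap, and rose from 59.4 ± 25.7 to 150.8 ± 26.9 (1.43, SE 0.34, adjusted p = 0.0144). The ratio of Itgb7 to Itgb1 transcripts was thus higher in each KO library than in each WT library, with Itgb1 still the more abundant. Both calls held on leaving out any 1 library; without KO acute libraries 1 and 2 Itgb7 was 1.54 (adjusted p = 0.0512), and with a constant prior spread both missed the threshold (0.0648 and 0.0551). Of 13 other integrin subunits tested these 2 passed, 1 in each direction, beside 12.6% of all genes tested.

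**Figure D4:**
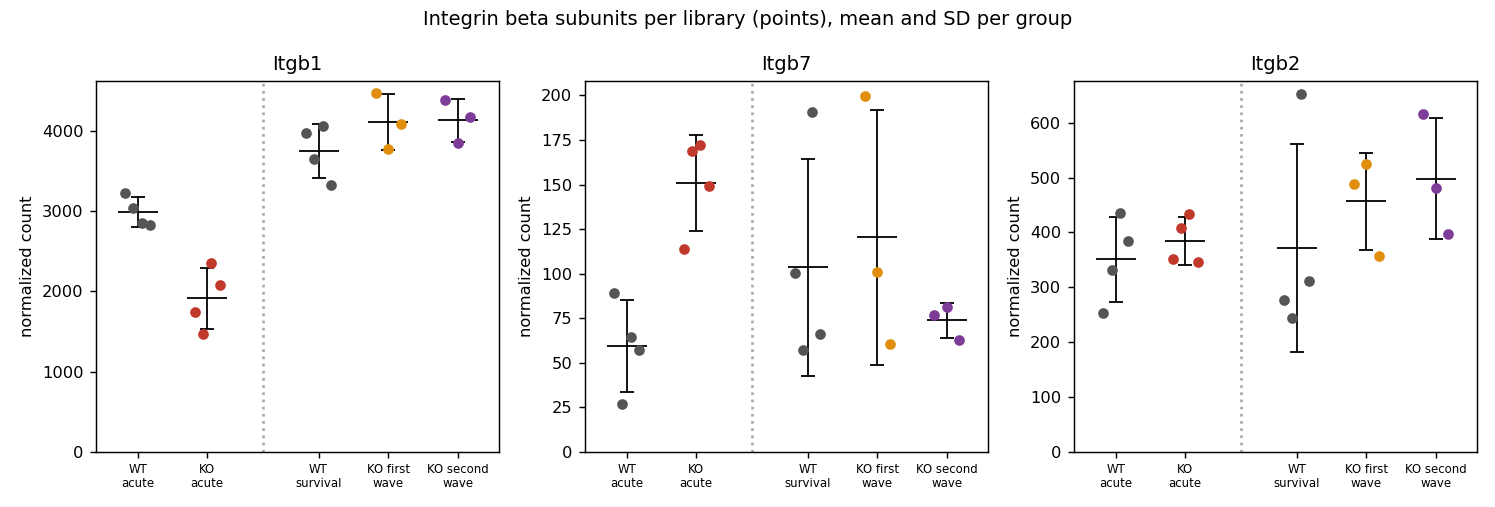
Normalized counts (y axes, linear from 0) of the integrin chains Itgb1, Itgb7 and Itgb2 in each library (points) by group (x axis), with the group mean and SD; the dotted line parts the 2 tables. In the acute groups Itgb1 is lower and Itgb7 higher in every KO library than in any WT library.

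In the survival table Itga4 was highest in the second wave. It was at 4957, 4062, 5481 and 5099 in WT, 4119, 4614 and 5286 in the first wave, and 10572, 5317 and 9670.5 in the second wave. Libraries 1 and 3 of the second wave stood far above all others, while library 2 lay inside the WT range and just above the first wave. The mean of 8519.7 ± 2810 (SD) was 1.74 times that of WT (4899.7 ± 601) and 1.82 times that of the first wave (4673 ± 586). The log2 fold change was 0.74 against WT (SE 0.21, 95% interval 0.29 to 1.20, adjusted p = 0.186) and 0.81 against the first wave (SE 0.23, 0.33 to 1.30, adjusted p = 0.390). The 2 waves did not overlap, as for 13.6% of all genes, and the second wave overlapped WT, where 9.66% of genes did not. Without library 2 of the second wave both passed in limma, at 1.05 (adjusted p = 0.0245) and 1.12 (adjusted p = 0.0401). Leaving out the lowest library of the group raises the difference by construction, so these passes add no support. Neither comparison passed on leaving out any other library. The B-cell markers summed to 279 to 413 in the second wave and 510 to 809 in WT, and the NK-cell markers to 479 to 694 and 836 to 1071, both with no overlap; Pax5, a B-cell transcription factor, was at 1.67 ± 1.60 and 68.3 ± 29.6 (-4.81, adjusted p = 0.0239; 0.0736 to 0.116 without second wave 1 or WT survival 1, 2 or 4). In the first wave these B-cell and NK-cell sums were 517 to 570 and 821 to 969, also with no overlap with the second wave. The 20 thymocyte and T-ALL markers summed to 115597 to 126837 in the second wave and 144785 to 170667 in the first, with no overlap. Of these, 19 were lower and 1 higher in the second wave, and none passed (4 at an unadjusted p under 0.05, limma). The first-wave sum also lay above that of WT (95891 to 142987), with no overlap. All 20 were higher in the first wave than in WT, and none passed (6 at an unadjusted p under 0.05, limma). In the second wave against WT 9 were higher and 11 lower. The part of these markers in the Itga4 values, or in any first-wave comparison of the members, was not tested. The first wave gave -0.07 against WT (95% interval -0.52 to 0.39). Itgb1 was at 3757 ± 335 in WT, 4116 ± 350.0 in the first wave and 4138 ± 269 in the second wave, and Itgb7 at 104 ± 60.9, 120.3 ± 71.5 and 73.6 ± 9.72; neither passed. The gene span of Itga4 overlaps that of Cerkl on the opposite strand. Whether their exons overlap was not examined, so any part of Cerkl reads in these values is unknown. Vcam1, the VLA-4 ligand of stroma and macrophages, was at 472 ± 234, 549 ± 34.1 and 717 ± 483 in WT, the first and the second wave, and did not pass.

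Itgal (chr7:127296260-127335138, plus strand) encodes the α chain of LFA-1, which pairs with the β2 chain (Itgb2) and binds ICAM-1. It was at 1739, 1343, 1561 and 1546 normalized counts in WT acute and 2826, 1984, 1764 and 1555 in KO acute. KO libraries 1, 2 and 3 exceeded all WT libraries and KO library 4 lay among them; the highest were the 2 libraries with high mitochondrial shares. The log2 fold change was 0.36 (SE 0.16, 95% interval 0.01 to 0.71, adjusted p = 0.164), opposite in sign to that of Cxcr4. Itgb2 was at 385 ± 43.5 in KO and 351 ± 77.7 in WT (0.15, SE 0.18, adjusted p = 0.630). Icam1 was at 126 ± 14.4 and 129 ± 40.9 and did not pass.

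At the endpoint Itgal was at 1519, 1606, 2736 and 2665 in WT, 2497, 2427 and 2966 in the first wave, and 2633, 2995 and 1871 in the second wave. WT libraries 1 and 2, which stood apart on the first principal component, were the lowest of the 10, and the other WT libraries lay with the KO libraries. The differences of 0.35 (SE 0.23, adjusted p = 0.675 in limma) for the first wave and 0.26 (SE 0.23, adjusted p = 0.662) for the second wave turned to -0.04 and -0.14 without these 2 libraries. Leaving out the 2 lowest WT libraries lowers these differences by construction, so the turn is no separate result. The same 2 WT libraries had the lowest summed T-ALL markers (95891 and 101640.0, against 142987 and 133151 in WT libraries 3 and 4). That sum weighs high genes most, and Rag1 alone ran from 10604 to 31477 over the WT survival libraries. The part of these markers in the Itgal values was not tested.

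The machinery downstream of these receptors was read from lists of signalling, adhesion and motility genes. In the acute comparison 4.58% of all 14184 genes tested rose and 8.07% fell, and no list count was tested against these shares. Over all 10 migration lists, 155 distinct genes were tested in the acute comparison, of which 8 rose and 19 fell. That split moved with the scaling, to 14 and 15 after quantile and 15 and 15 after cyclic loess normalization, and to 7 and 22 with the trend over transcript length and GC content removed; over all genes the same settings gave 47.3%, 47.2% and 26.3% of calls higher in KO, against 36.2% as reported. With a constant prior spread 0 rose and 6 fell. Without KO acute libraries 1 and 2 the count was 4 and 11. In the survival comparisons no gene of these lists passed (limma; between 0 and 5 genes of a list at an unadjusted p under 0.05 in either wave against WT).

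**Figure D5:**
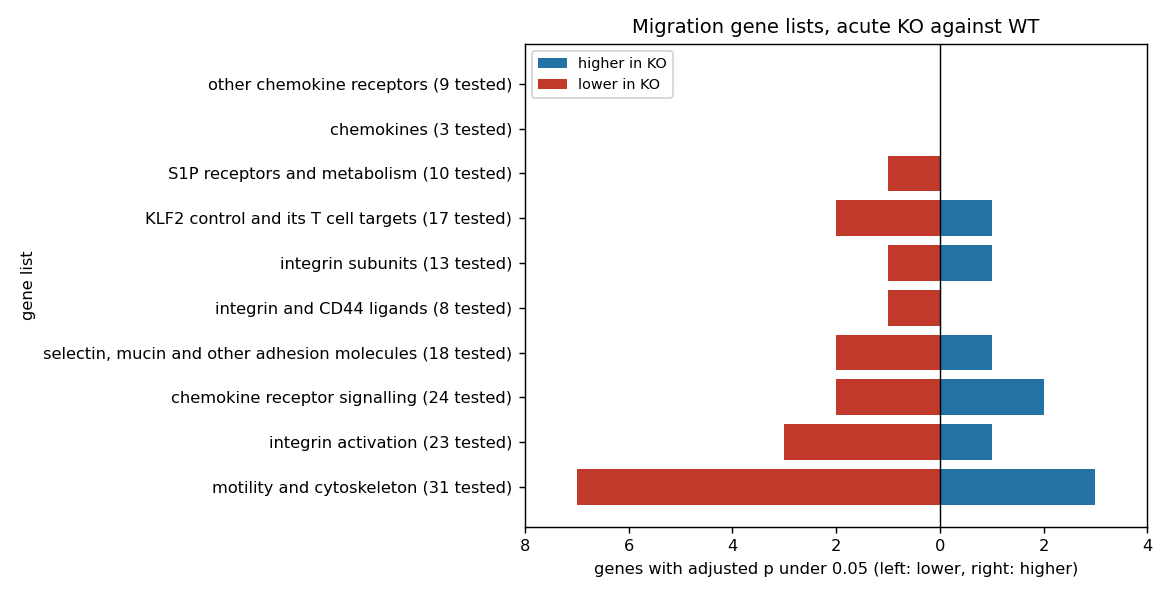
Number of genes (x axis) of each migration list (y axis, number tested in brackets) with an adjusted p under 0.05 in acute KO against WT, higher in KO to the right and lower to the left. The motility and cytoskeleton list, the longest, has the most calls, with 3 higher and 7 lower of 31 tested, beside 4.58% and 8.07% of all genes tested. That split turned to 6 higher and 5 lower after quantile and 7 higher and 5 lower after cyclic loess normalization.

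Cytoskeletal genes, the longest list, gave the largest count, with 7 of 31 lower and 3 higher in acute KO, beside 8.07% and 4.58% of all genes tested. The split turned to 5 lower and 6 higher after quantile and 5 lower and 7 higher after cyclic loess normalization. Rhoa, the small GTPase behind contraction of the cell rear, fell from 5235 ± 272 to 3389.7 ± 234 (-0.63, SE 0.09, adjusted p = 0.00158), and Pfn1, the actin monomer-binding profilin, from 822 ± 87.9 to 423 ± 57.8 (-0.96, SE 0.15, adjusted p = 0.00171). Dock2, the Rac activator that chemokine receptors use in lymphocytes, rose from 908 ± 119 to 1449.8 ± 218 (0.67, SE 0.14, adjusted p = 0.00740), and its relative Dock8 from 2414 ± 227 to 3318 ± 246 (0.46, SE 0.11, adjusted p = 0.0127; 0.208 with the length and GC trend removed). Of 24 chemokine receptor signalling genes 2 rose and 2 fell. The G-protein subunits Gnai3 (-0.65, SE 0.14, adjusted p = 0.00881), which couples chemokine receptors, and Gna13 (-0.55, SE 0.12, adjusted p = 0.00989) fell. Gnaq rose by 1.41 (SE 0.38, adjusted p = 0.0266; 0.0815 without WT acute library 4, 0.0785 without KO acute library 2 and 0.0513 without KO acute library 3). Plcb2, a phospholipase downstream of Gβγ, gave 0.68 (adjusted p = 0.0418) and lost its call without any of 6 libraries (adjusted p 0.0652 to 0.110: WT acute 2, 3 and 4, KO acute 1, 2 and 3).

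Of 23 integrin activation genes 1 rose and 3 fell, and 3 rose and 0 fell after quantile or cyclic loess normalization, so the direction of this list turned with the scaling. Stk4, the MST1 kinase that acts with RASSF5 on LFA-1, gave -0.56 (adjusted p = 0.0172; 0.0608 without WT acute library 2, 0.0544 without WT acute library 3, 0.0591 after quantile and 0.0639 after cyclic loess normalization), and Stk26, another kinase of the MST family, gave -0.51 (adjusted p = 0.0150; 0.0604 without WT acute library 4, 0.0570 after quantile and 0.0557 after cyclic loess normalization). Ptk2b, the focal adhesion kinase PYK2, gave 0.50 (adjusted p = 0.0314) and lost its call without any library but KO acute 3 (adjusted p 0.0528 to 0.0960) and with the length and GC trend removed (0.151). Of 18 selectin, mucin and other adhesion genes 1 rose and 2 fell, and 3 rose and 2 fell with the length and GC trend removed. Cd47, the signal that protects cells from phagocytosis and binds integrins, fell from 5452 ± 700.4 to 3554 ± 238 (-0.61, SE 0.11, adjusted p = 0.00376), and the tetraspanin Cd81 from 1249 ± 204 to 711 ± 184 (-0.83, SE 0.18, adjusted p = 0.00853). Pecam1, an adhesion molecule of endothelium and leukocytes, rose from 649.7 ± 55.8 to 942 ± 77.8 (0.54, SE 0.13, adjusted p = 0.0144; 0.104 without KO acute libraries 1 and 2). The macrophage marker sum was higher in KO acute, with only Lyz2 of 11 tested passing, and its part in the Pecam1 rise was not tested. Of the 20 genes that these lists name, 16 lost their call with a constant prior spread (Il7r, Klf6, Rhoa and Pfn1 kept it) and 11 without KO acute libraries 1 and 2.

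The members did not move as a block between libraries. Over all pairs of the 8 genes the most negative correlation of log2 values was that of Cxcr4 with Itgal, with r = -0.73 over the 8 acute and -0.67 over the 10 survival libraries. Klf2 and its target S1pr1 gave 0.35 and 0.49. These are descriptions: the libraries share normalization and fall into 2 or 3 groups. The genes whose pattern was most like each member's in both tables, among 7822 or 7823 genes with a mean of at least 100, were Mmadhc (r = 0.97 and 0.88) and Sde2 (0.89 and 0.90) for Cxcr4, Rfk (0.81 and 0.92) and Pcyt1a (0.78 and 0.78) for Itga4, and Gtf2i (0.81 and 0.81) and Adcy7 (0.80 and 0.82) for Itgal. For Ccr9 they were Pogz (0.77 and 0.89) and Usp40 (0.70 and 0.68), and for Cd44 Hdac9 (0.75 and 0.76) and Cpd (0.71 and 0.68). For the low members they were Tent5c (0.73 and 0.79) and Aes (0.80 and 0.69) for Klf2, Zfp146 (0.72 and 0.74) and Bcl2 (0.85 and 0.71) for S1pr1, and Klhl6 (0.67 and 0.67) and Paip2b (0.89 and 0.65) for Ccr7.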

How the data were processed

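RNA was measured in 18 leukemic spleen libraries. The authors deposited 2 tables in the unit signal: kallisto 0.44.0 gene estimates scaled with DESeq size factors for GRCm38, as the submitters' processing notes name them. The strand setting, annotation and filter are not stated there. Between 34.5% and 63.4% of low values were whole multiples of a step (tolerance 0.02), too few to recover reads, so no count model was used; the steps put the depth at 6.07 to 12.7 M reads per library, which limits low members most. From log2(value + 1), genes averaging 10 or more entered limma 3.58.1 (R 4.3.3; lmFit, eBayes with trend); p-values were adjusted by Benjamini-Hochberg over every gene in the fit and called under 0.05. The acute fit held 8 libraries and the survival fit 10. The code was tested on simulated data. Gene models came from GENCODE M21 and the stretches before gene starts from RefSeq (GRCm38.p6), which matched 5 of the 8 members. The members and lists were chosen with earlier results of these data known. Named in the text are Acly, the members, Itgb1, Itgb7, Itgb2, for each list and direction up to 2 genes past the threshold with the smallest adjusted p (higher group averaging 50 or more), and the 2 genes most like each member; ligand genes, sphingosine kinases and leukemia markers were added after their values were seen. Alternatives changed the pseudocount, filter, scaling, prior spread, replicate block and libraries. Some genes of the lists are not reported here and stay out of the list counts.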

Additional observations from a re-analysis of the deposited data

Results flagged for a closer look

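In 42 groups of 4 libraries looked at for a library far from the rest, 2 were marked, and chance marks about 1 in 20. Itgb2, the β2 chain of LFA-1, was at 653 normalized counts in WT survival library 3, against 244 to 312 in the other WT survival libraries (gap over range 0.834, critical value 0.829). Klf6 was at 558 in WT survival library 2, against 331 to 368 in the others (0.836). Neither gene passed in a survival comparison.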

How the results depend on the processing

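Of 736 values of the members under the alternatives, 677 kept their direction and their side of the threshold, 12 lost the call, 2 gained one and 45 changed sign; every sign change was of a value that did not pass. The 1 member called in the acute comparison became 0 under quantile normalization, cyclic loess, removal of the length and GC trend, a constant prior spread, and without KO acute libraries 1 and 2; the cause was not tested. Leaving out each library in turn gave 0 to 1 members in the acute comparison, 0 to 1 in the second wave against WT and against the first wave, and 0 in the others. Over all genes the acute calls fell from 1794 to 693 with a constant prior spread and to 903 without KO acute libraries 1 and 2, and lay between 983 and 1634 without 1 library. Calls in the second wave against WT were 32, and 15 to 140 without 1 library (140 without WT survival library 3); those of the second wave against the first were 17, and 1 to 38, and those of both waves against WT 3, and 2 to 155 (155 without WT survival library 3, at most 5 without any other). In the acute comparison Klf2 turned to -0.0096 (pseudocount 5), -0.19 (quantile or loess), -0.046 (length and GC) and -0.45 (without KO acute 1 and 2), and Itga4 to 0.0084 (loess). In the first wave against WT, Cd44 turned to -0.0018 (quantile) and -0.0071 (loess) and Itga4 to 0.019 (length and GC). Without WT survival libraries 1 and 2, Itgal turned to -0.044, -0.14 and -0.091 in the first wave, the second wave and both, Klf2 to -0.22 and -0.62 in the second wave and both, and S1pr1, Ccr9 and Cxcr4 to 0.18, -0.069 and 0.020 in the second wave; Itgb2 and Itgb7 turned to -0.0013 and -0.073 in the first wave. Leaving out 1 library at a time, the log2 fold changes whose sign turned spanned these ranges. In the acute comparison they were -0.66 to 0.50 for Klf2 and -0.23 to 0.10 for Cd44. In the first wave against WT they were -0.78 to 0.32 for Klf2, -0.14 to 0.20 for Cd44, -0.16 to 0.02 for Itga4 and -0.24 to 0.61 for Itgb7. In the second wave against WT they were -0.54 to 0.55 for S1pr1, -0.033 to 0.082 for Ccr9, -0.24 to 0.029 for Cxcr4, -0.51 to 0.77 for Cd44 and -0.56 to 0.017 for Itgb7. In the second wave against the first they were -0.048 to 0.21 for Cxcr4, -0.53 to 0.75 for Cd44 and -0.24 to 0.10 for Itgal. In both waves against WT they were -0.33 to 0.60 for Klf2 and -0.25 to 0.40 for Cd44. The replicate numbers do not pair the libraries (correlations of same-numbered libraries between -0.029 and 0.095); with the replicate block 1 member and 1391 genes passed in the acute comparison and 0 members in the others. Low counts limit Klf2, S1pr1 and Ccr7 most.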

Other observations

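T-cell stage genes gave values beside those of the homing receptors in the acute libraries. Over all genes tested 4.58% rose and 8.07% fell, and no marker count was tested against these shares. Of the 20 thymocyte and T-ALL markers 6 fell and none rose: Tcf7, a transcription factor of T-cell commitment, was at 10308 ± 2353 normalized counts in KO and 18946 ± 358 in WT (log2 fold change -0.91, SE 0.14, adjusted p = 0.00158 in limma), and Dntt, the terminal transferase of immature lymphocytes, at 3279 ± 462 and 4544 ± 434 (-0.48, adjusted p = 0.0166; 0.0511 without WT acute library 2; -0.30 and 0.116 after quantile, -0.28 and 0.128 after cyclic loess normalization, -0.35 and 0.107 without KO acute libraries 1 and 2). Of 11 mature T-cell markers tested 1 rose and 1 fell. Cd4 was at 433 ± 147 in KO and 194 ± 55.6 in WT (1.11, adjusted p = 0.0220), a call lost without any of 5 libraries (0.0546 to 0.0670: WT acute 2 and 4, KO acute 1, 2 and 3; 0.195 without both KO acute 1 and 2). Cd28, the costimulatory receptor, was at 2012 ± 300.3 and 2925 ± 334 (-0.55, adjusted p = 0.0154; 0.0511 without WT acute library 3 and 0.0567 without WT acute library 4, 0.0514 after cyclic loess normalization and 0.0780 without KO acute libraries 1 and 2).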
